A study of Homo sapiens with 7 samples.

Results

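Human chromosomes 13, 14 and 15 were examined for replication timing, the order in which parts of the genome are copied during S phase. Members were the windows of 100 kb on these chromosomes that held at least 3 probes on each of the 6 arrays of the 180k design, 2300 of 24161 on chromosomes 1 to 22 and X. They were filled from all 16770 of 169544 probes that the array tables place there, control spots left out. Chromosome 13 had 5594 probes in 799 windows, chromosome 14 had 5636 in 768, and chromosome 15 had 5540 in 733. The 3 chromosomes were put forward because the K562 arrays made after a new and an old cell sorting method matched unequally across them, so that agreement is described here and not tested.

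K562 is a suspension line from chronic myeloid leukaemia and U2OS an adherent osteosarcoma line. In every group growing cells took up 50 µM bromodeoxyuridine (BrdU) for 2 h, and sorting gave 80000 cells each in fractions of early S phase and of late S phase. Newly made DNA was pulled down with an antibody against BrdU and amplified. Cy3 (green) marked the early and Cy5 (red) the late fraction throughout, so timing was read in a single dye orientation. The groups were K562 after the new sorting method (n = 1), K562 after the old sorting method (n = 1), U2OS labelled manual (n = 2) and U2OS labelled automated (n = 2). What was done by hand or by machine is not named in the titles, and nothing says that arrays came from separate cultures, so the spread between arrays may be technical. Both manual arrays lay on the same slide and each other array on its own, so method and slide cannot be told apart, and neither can cell line and slide.

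Acrocentric chromosomes have their centromere close to one end. Their short arms carry ribosomal RNA gene repeats and satellite DNA, which are shared between chromosomes and hard to probe. The probes used here covered the long arms alone, from chr13:19296544-115105297, chr14:19376762-107278770 and chr15:20102541-102480888 on build hg19. In mammalian cells gene-rich, open chromatin tends to replicate early and gene-poor chromatin near the nuclear lamina tends to replicate late. Large domains of either kind can switch timing between cell types.

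The following 60-base probes show what was measured at the windows where arrays differed most. Each is the probe nearest the centre of its window, written as the deposited table gives it, 5′ to 3′, with any CG pair in capitals, since these are the sites of DNA methylation and most probes lack them. The first 3 lay in the windows of chromosomes 13, 14 and 15 where the new sorting array was furthest below the old.
chr13:57352466-57352525: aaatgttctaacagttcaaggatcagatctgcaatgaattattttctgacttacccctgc
chr14:85539909-85539968: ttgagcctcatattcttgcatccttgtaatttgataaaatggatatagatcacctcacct
chr15:26557857-26557916: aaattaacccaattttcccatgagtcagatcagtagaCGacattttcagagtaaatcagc
The next 3 lay in the windows furthest earlier in K562 than in U2OS, and carried the gene names DIAPH3, PAX9 and none.
chr13:60647462-60647521: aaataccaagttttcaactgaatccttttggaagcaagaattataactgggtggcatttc
chr14:37146052-37146111: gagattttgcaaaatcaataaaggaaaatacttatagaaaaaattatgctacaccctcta
chr15:96058577-96058636: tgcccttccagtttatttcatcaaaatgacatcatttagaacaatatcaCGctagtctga
The last 3 lay in the windows furthest later in K562, with the gene names none, FRMD6 and LRRC49.
chr13:73960812-73960871: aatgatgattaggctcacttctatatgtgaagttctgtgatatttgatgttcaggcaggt
chr14:52049832-52049891: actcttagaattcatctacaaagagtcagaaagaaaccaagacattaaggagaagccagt
chr15:71341919-71341978: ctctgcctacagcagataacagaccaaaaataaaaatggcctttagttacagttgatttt
The probe on chromosome 15 named for LRRC49 read -3.03 on the new and -2.70 on the old K562 array, and between 1.27 and 2.41 on the 4 U2OS arrays, as log2(early/late). The probe of the chromosome 14 window with the widest sorting gap read -5.14 on the new array and 1.55 on the old. Base composition did not separate the chromosomes: the median probe held 36.7% G and C on each, and 65.6%, 67.6% and 66.8% of probes on chromosomes 13, 14 and 15 had no CG pair, against 66.1% of all probes. Exon, intron and UTR positions of the probes were not analysed here.

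Timing values are log2(early/late), so that a value above 0 marks a locus earlier than the array's median probe. Brightness is the median spot signal above the negative control spots, in scanner units. It was low on the old sorting array and on the manual arrays: the green channel of chromosome 13 read 122 units on the new sorting array, 22.3 on the old, 26.3 and 25.8 on manual U2OS arrays, and 115 and 79.8 on automated ones. Where a channel is too dim, the scanner software replaces its signal with a surrogate value, and this applied in green to 12.8% of all spots on the old sorting array against 2.30% on the new. At CDKN2A, a cell cycle inhibitor gene known to be deleted in K562, green brightness was -0.0107 and 0.215 times the array's median on the new and old K562 arrays and 0.720 to 1.08 times on the U2OS arrays, so both K562 arrays were the dimmer there.

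The median window was late on chromosome 13, near the middle on chromosome 14 and early on chromosome 15, in both cell lines. The median window of chromosome 13 was -1.54 on the new and -0.45 on the old K562 array, -0.67 and -0.64 on manual U2OS arrays, and -1.11 and -1.15 on automated ones. All 6 values were below 0, and those of the 2 K562 arrays lay furthest apart. For chromosome 14 the values in the same order were 0.38, 0.24, 0.11, 0.23, 0.26 and 0.21, all above 0. For chromosome 15 they were 0.68, 0.43, 0.58, 0.72, 0.68 and 0.59, again all above 0. None of these signs changed when arrays were centred on the mean probe. Over all windows the medians ran from -0.19 to -0.01. Dim probes were those that the scanner software called well above background in neither channel on at least 1 of the 6 arrays. Without them 433 windows of chromosome 13 were left and its median ran from -0.11 to 0.12, above 0 on 4 of 6 arrays, while the medians of chromosomes 14 and 15 stayed above 0 on 6 of 6. With all probes, those 433 windows had a median of 0.18 on the new and -0.06 on the old K562 array, and the 366 others -2.35 and -0.71. Of those 366 windows 92.3% were late in the mean of the U2OS arrays, so late timing and dimness cannot be told apart there. Without surrogate probes the median of chromosome 13 stayed below 0 on 6 of 6 arrays, from -0.66 to -0.21.

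The share of windows earlier than the median probe was 34.5% ± 3.29 (SD, n = 6) on chromosome 13, 54.2% ± 1.42 on chromosome 14 and 62.0% ± 3.56 on chromosome 15. Ordered by the mean of the median window over the 6 arrays, chromosome 13 was 2nd from the latest of 23 chromosomes, chromosome 14 was 15th and chromosome 15 was 19th. Chromosome 15 was earlier than chromosome 13 by 2.22 on the new sorting array, 0.88 on the old, 1.25 and 1.35 on manual arrays and 1.78 and 1.74 on automated ones. The gap had the same direction on 6 of 6 arrays and was 1.54 ± 0.47 on average (two-sided exact permutation test by sign flips over arrays, p = 0.03125, the smallest that 6 arrays allow). Chromosome 14 was earlier than chromosome 13 by 1.16 ± 0.47 and later than chromosome 15 by 0.37 ± 0.11, each in the same direction on 6 of 6 arrays, with the same exact permutation p of 0.03125 (0.03125 after Benjamini-Hochberg adjustment over these 3 contrasts). The 6 arrays come from only 2 cell lines. Without dim probes the gap between chromosomes 15 and 13 was 0.54, and with normexp, no background correction or loess after normexp it was 0.85, 0.69 and 0.87, in the same direction.

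Long blocks of a single timing class set the chromosomes apart. Runs were counted over measured windows in order, passing over stretches with too few probes, so a run can span more than its windows. In the U2OS mean, chromosome 13 held a late run of 143 successive measured windows at chr13:53200001-73400000 with a median of -1.66. In the K562 mean its longest late run was 100 windows at chr13:80400001-95100000, also with a median of -1.66. The new sorting array alone had the same run with a median of -2.74, and the longest late run of the old array was elsewhere, 71 windows at chr13:33400001-41100000 with a median of -1.34. Chromosome 14 had late runs of 84 windows in U2OS (chr14:78400001-89400000, median -1.64) and 43 windows in K562 (chr14:82300001-89100000, median -1.37). That run had a median of -2.80 on the new array alone, and the longest late run of the old array was 38 windows at chr14:25400001-30700000 with a median of -1.07. On chromosome 15 the longest run in U2OS was early, with 143 windows at chr15:62200001-76800000 and a median of 1.35. In K562 the longest early run of that chromosome was 60 windows at chr15:39800001-45800000, with a median of 1.34. Early stretches of chromosome 13 lay at nearly the same place in both lines, at chr13:48600001-53300000 in K562 (46 windows, median 1.26) and chr13:48600001-53200000 in U2OS (45 windows, median 0.99).

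**Figure D1:**
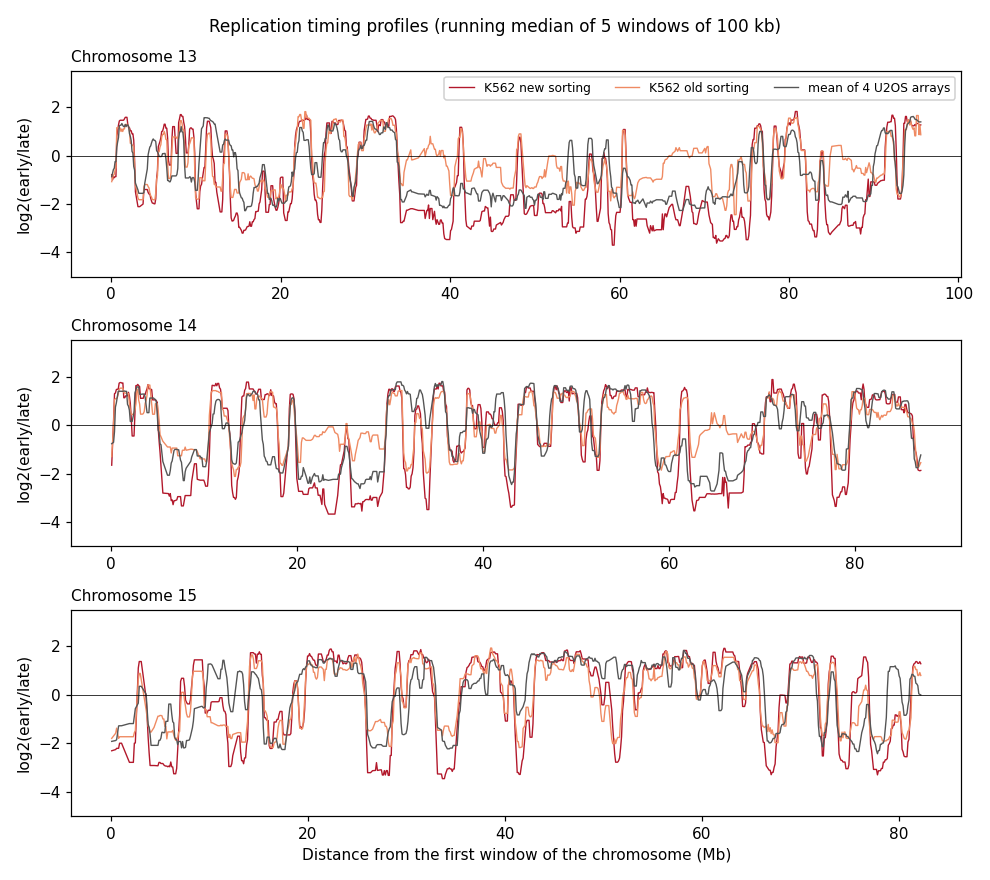
Running median of 5 windows of log2(early/late) along chromosomes 13, 14 and 15, against distance in Mb from the first window, for the new and the old K562 sorting arrays and the mean of the 4 U2OS arrays. The K562 curves overlap where timing is early and separate in late blocks of chromosomes 13 and 14, where the new sorting array is lower; on chromosome 15 they separate less.

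Over all probes, chromosome 13 was the dimmest of the 3 chromosomes in the early fraction on 6 of 6 arrays. Relative to the median of all probes on the array, green brightness of chromosome 13 was 0.646 and 0.729 on the new and old K562 arrays, 0.560 and 0.580 on manual U2OS arrays and 0.586 and 0.606 on automated ones. Red brightness of chromosome 13 was 0.862, 0.818, 0.724, 0.714, 0.853 and 0.857 on the same arrays, so that over all probes both fractions were dimmer than the array on 6 of 6. Over probes well above background its red brightness was 0.999 and 1.05 on the K562 arrays and 0.830 to 0.893 on the U2OS arrays, so the old sorting array was then above 1. Chromosome 15 was brighter than the array in green on 6 of 6 arrays, from 1.20 on the old sorting array to 1.51 on the second manual array, while its red brightness lay between 0.882 and 1.06. On the automated arrays, where chromosome 15 read 1.31 and 1.29 in green, chromosome 14 was the brighter.

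Chromosome 14 differed between the lines in both channels. Its green brightness was 1.02 and 0.862 in K562 and 1.17, 1.25, 1.38 and 1.35 in U2OS, and its red brightness was 0.764 and 0.699 in K562 and 1.02, 1.06, 1.20 and 1.18 in U2OS. The lines did not overlap in either channel. Among the 10-Mb bins of chromosome 14, green brightness in U2OS was highest between 60 and 70 Mb, where it was 2.03, 1.97, 2.85 and 2.70 times the array median on the U2OS arrays against 1.27 and 0.961 on the K562 arrays. Red brightness there was 1.43, 1.39, 1.92 and 1.83 in U2OS and 0.832 and 0.804 in K562, so both fractions were above the array median in U2OS. A chromosome's brightness in these data mixes its copy number with the DNA recovered per fraction, and their parts were not tested. Over probes well above background in both channels on all 6 arrays (30473 spots, of which 490, 948 and 1207 lay on chromosomes 13, 14 and 15), the mean log2 ratio of chromosome 13 was -0.28 instead of -0.70 in green and -0.14 instead of -0.32 in red.

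**Figure D2:**
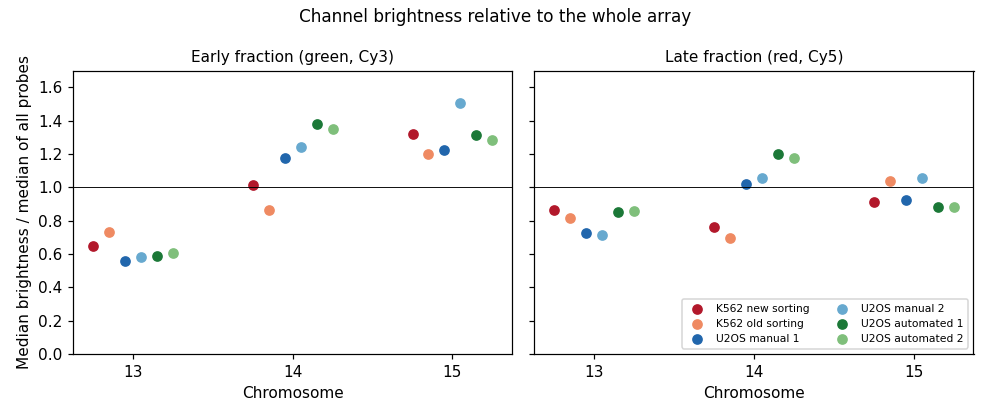
Median brightness over all probes of chromosomes 13, 14 and 15, divided by the median of all probes, for the early (left) and late (right) channel, with 1 point per array and a line at 1. Chromosome 13 lies below 1 in both channels on 6 of 6 arrays, and on chromosome 14 the U2OS arrays lie above both K562 arrays.

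The new and old sorting K562 arrays ordered the windows of chromosome 15 almost alike and those of chromosome 13 less so. Pearson's r between the arrays was 0.769 on chromosome 13 (Spearman's rho 0.718), 0.833 on chromosome 14 (0.854) and 0.918 on chromosome 15 (0.913), across windows that share an array and are not replicates. All windows gave 0.872, and the other 20 chromosomes ran from 0.748 to 0.923 with a median of 0.881. Chromosomes 13, 14 and 15 were 2nd, 5th and 21st from the lowest of 23. The pair of manual U2OS arrays gave r of 0.884, 0.933 and 0.939 on chromosomes 13, 14 and 15, and the automated pair gave 0.968, 0.983 and 0.979. With 1 array per sorting method, a difference between methods cannot be told apart from a difference between arrays.

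The disagreement was mostly one-sided and lay mostly in late windows, most clearly on chromosome 13. On chromosome 13, 316 of 799 windows (39.5%) were at least 1 apart in log2, against 27.7% of all windows, and the new array was the later in 305 of them. Chromosome 14 had 203 such windows (26.4%), 177 of them later on the new array, and chromosome 15 had 116 (15.8%), 89 of them later. Opposite signs were found in 94 windows of chromosome 13 (11.8%), 67 of chromosome 14 (8.72%) and 45 of chromosome 15 (6.14%), against 7.82% of all windows. The new array was at least 1 earlier in 11, 26 and 27 windows, against 2.76% of all windows, and at least 1 later in 25.0% of all. Across windows, the fitted slope of the old array on the new was 0.49, 0.50 and 0.68, which falls with a lower r as well as with a flatter profile. The SD of window values on chromosomes 13, 14 and 15 was 1.77, 1.83 and 1.76 on the new array. On the old array it was 1.13, 1.09 and 1.30, so the old array spread less on each chromosome.

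**Figure D3:**
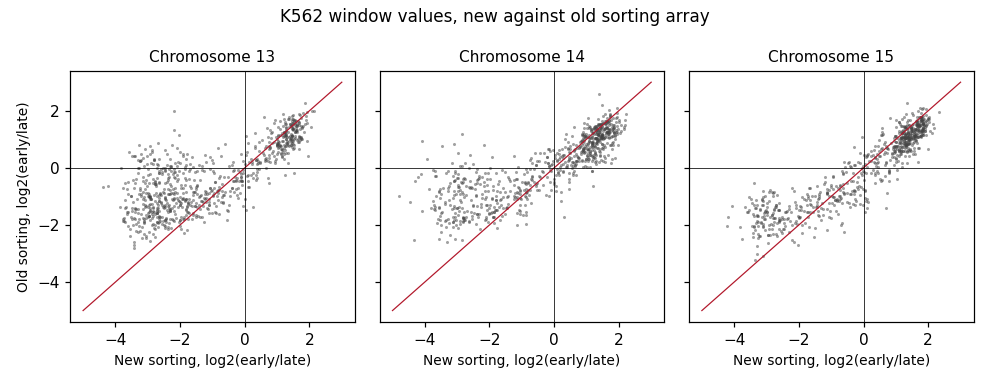
Log2(early/late) of each 100-kb window on the new (x axis) and old (y axis) K562 sorting arrays, with 1 panel per chromosome and the line of equality. Points follow the line above 0 in the 3 panels, while at negative x values many points of chromosomes 13 and 14 lie above the line and some above 0.

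Windows were also split by the mean of the automated U2OS arrays, which the K562 agreement did not enter. Among windows early in those arrays r between the sorting arrays was 0.905, 0.872 and 0.921 on chromosomes 13, 14 and 15, and among late windows it was 0.577, 0.639 and 0.830. Late windows made up 68.8%, 46.2% and 35.1% of the 3 chromosomes. The sorting arrays were at least 1 apart in 54.7%, 49.0% and 36.6% of these late windows, against 46.0% of late windows on all chromosomes. In early windows the shares were 6.02%, 7.02% and 4.62%, against 7.45%. There the new array was at least 1 earlier in 3, 17 and 14 windows and at least 1 later in 12, 12 and 8. The median late window of chromosome 13 was -2.25 on the new array and -0.85 on the old, that of chromosome 14 was -1.97 and -0.71, and that of chromosome 15 was -2.04 and -1.29. In windows where no probe carries a gene name r was 0.432, 0.653 and 0.854, and in windows with such a probe it was 0.849, 0.882 and 0.924. Windows with no gene-named probe made up 29.4% of chromosome 13, 21.9% of chromosome 14 and 14.9% of chromosome 15.

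In bins of 10 Mb the low agreement was local. Of 28 bins with at least 20 windows, 8 had r under 0.75: 6 of 10 on chromosome 13, 2 of 9 on chromosome 14 and 0 of 9 on chromosome 15. Between 80 and 90 Mb of chromosome 13, a stretch where 25.9% of windows hold a gene-named probe, r was 0.424, and signs were opposite in 36.2% of windows. The bin's median was -2.43 on the new array, -0.27 on the old, and between -2.32 and -1.44 on the U2OS arrays, so the old array stood apart from the other 5. Between 40 and 50 Mb of chromosome 14 r was 0.423, with medians of -2.81 on the new array, -0.51 on the old and -2.44 to -1.72 on the U2OS arrays. Between 50 and 60 Mb of chromosome 13 the old array's median was 0.48, above 0, while the other 5 lay between -1.70 and -0.54. On chromosome 15 the bin with the lowest r, 0.849, was that from 20 to 30 Mb. Some of the 8 bins had low r within a U2OS method too. For the manual pair r was 0.422 at 60 to 70 Mb of chromosome 13, against 0.664 between the sorting arrays. It was 0.665 at 80 to 90 Mb of chromosome 13 and 0.658 at 40 to 50 Mb of chromosome 14. In the rest it was at least 0.778. The automated pair was lowest at 80 to 90 Mb of chromosome 13 and at least 0.786 in the other bins of the 8. Whether low r was particular to the sorting arrays was not tested.

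Dimness of the old array moved with the agreement. Green surrogates on that array made up 19.0% of spots on chromosome 13, 14.1% on chromosome 14 and 7.81% on chromosome 15, against 4.79%, 2.27% and 0.827% on the new array. In the 8 bins with r under 0.75 they made up 19.7% to 40.1% of spots, and in the other 20 bins 5.07% to 16.6%, so the ranges did not overlap. Across the 28 bins, which share 2 arrays, the rank correlation of r with the surrogate share was -0.779. Within chromosomes 13, 14 and 15 it was -0.891, -0.467 and -0.717. The bin left out for its few windows, 10 to 20 Mb of chromosome 13 with 5, had r of -0.507 at a surrogate share of 9.52%. When dim probes were left out, r became 0.920, 0.897 and 0.929, so chromosome 13 was no longer the lowest of the 3, and without surrogate probes it became 0.874, 0.871 and 0.921. Leaving out dim probes kept 433 windows of chromosome 13, 591 of chromosome 14 and 659 of chromosome 15. In those kept windows r was already 0.915, 0.901 and 0.931 with no probe left out, and in the windows lost it was 0.517, 0.753 and 0.822. Of the 366 windows lost on chromosome 13, 92.3% were late in the mean of the U2OS arrays, so late timing and dimness cannot be told apart there.

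On each chromosome the widest gap lay in a window where no probe carries a gene name and U2OS was late. At chr14:85500001-85600000 the new array read -4.08, the old 0.96, and the U2OS arrays -1.37, -1.78, -2.39 and -1.93. At chr13:57200001-57400000 the window of the widest gap on that chromosome read -2.19 on the new array, 1.99 on the old and -0.70, -0.89, -2.74 and -2.30 on the U2OS arrays. At chr15:26500001-26600000 the values were -3.39 and -0.54, with U2OS at -2.02, -2.39, -1.53 and -1.38. These windows of chromosomes 13, 14 and 15 held 3, 3 and 4 probes, at or near the minimum of 3. Of the 12 regions named between the sorting arrays, only 4 had a value without dim probes and 4 without surrogate probes. In the opposite direction the largest gap on chromosome 14 was 2.01, in the window at chr14:34100001-34200000 inside NPAS3, a transcription factor gene of the nervous system, with 0.29 on the new and -1.72 on the old array. RBM25, an RNA splicing factor gene, lay in a window early on the new (1.74) and less so on the old array (0.18), with 1.29 to 1.94 in U2OS.

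Between automated and manual U2OS arrays the called windows of chromosome 13 were mostly later on the automated arrays. A window was called at an adjusted p under 0.05 in limma, over all 24161 windows. Chromosome 13 had 134 called windows (16.8%), chromosome 14 had 53 (6.90%) and chromosome 15 had 51 (6.96%), against 8.33% of all windows. Later on the automated arrays were 125, 37 and 38 of these, against 6.37% of all windows, and earlier were 9, 16 and 13, against 1.97%. The median difference, automated minus manual, was -0.37 on chromosome 13, -0.15 on chromosome 14 and -0.13 on chromosome 15, beside a shift of -0.18 over all windows. Groups did not overlap in 63.6%, 59.5% and 59.9% of windows on the 3 chromosomes, against 59.0% of all.

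The region with the largest called difference was taken for each direction and chromosome, so both directions appear by that rule. On each chromosome the difference toward later on the automated arrays was the larger. At chr13:58300001-58400000, where no probe carries a gene name, manual arrays read -0.18 and -0.92 and automated arrays -3.21 and -2.80 (difference -2.46 ± 0.30 SE, limma adjusted p = 0.0137). At chr14:27700001-27800000 the values were -0.29 and -0.40 against -2.61 and -2.83 (difference -2.37, adjusted p = 0.0108). In the other direction a window of GPC5, a cell surface glypican gene, read -1.33 and -1.65 on manual and 0.37 and -0.28 on automated arrays (difference 1.54, adjusted p = 0.0194). A window at C15orf39 on chromosome 15 read -1.14 and 0.35 on manual and 1.41 and 1.12 on automated arrays (difference 1.66, adjusted p = 0.0422), with the manual arrays further apart than the automated. Its difference was 0.92 without the first manual array and 2.41 without the second. Of these 4 calls, all but that of chromosome 14 were lost without the first automated array, and those of GPC5 and C15orf39 without the second.

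The count of called windows depended on single arrays. Over the 3 chromosomes 238 windows were called. The count was 1 without the first automated array, 9 without the second, 616 without the first manual array and 607 without the second. Centring on the mean probe moved the shift over all windows to -0.02 and gave 159 calls, of which 61 (38.4%) were earlier on the automated arrays instead of 38 of 238 (16.0%). It was 1357 with normexp background correction, 1222 with none, 1383 with loess after normexp, 76 without dim probes, 125 without surrogate probes, 113 in 50-kb windows and 106 with arrays scaled to the same spread. Chromosome 13 had a larger called share than chromosomes 14 and 15 in 14 of the 15 alternatives run, the exception being that without the first automated array, where chromosome 13 had 0 calls. Without dim probes the share on chromosome 13 was 5.77%, beside 5.12% of all windows.

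A larger share of windows was called between K562 and U2OS on chromosome 15 than on chromosomes 13 and 14. Calls between the lines needed a limma adjusted p under 0.05 together with means at least 1 apart in log2. Chromosome 15 had 208 called windows (28.4%), chromosome 13 had 154 (19.3%) and chromosome 14 had 124 (16.1%), against 21.0% of all windows. On chromosome 15, 75 were earlier in K562 and 133 later, on chromosome 13 the counts were 64 and 90, and on chromosome 14 they were 55 and 69, against 9.0% earlier and 12.0% later over all windows. The median difference, K562 minus U2OS, was 0.06 on chromosome 13, -0.06 on chromosome 14 and -0.13 on chromosome 15, beside -0.09 over all windows. Line means had opposite signs in 94, 86 and 131 of the called windows of chromosomes 13, 14 and 15. K562 and U2OS arrays did not overlap in 36.8%, 39.5% and 49.9% of the windows of chromosomes 13, 14 and 15, against 41.6% of all windows. Whether the share differs between chromosomes was not tested.

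The called count was 486 over the 3 chromosomes, and the values of K562 rest on 2 arrays that themselves differed. Without the new sorting array 564 windows were called, 53.2% of them earlier in K562, and without the old array 729 were called, 30.6% of them earlier, instead of 39.9% with both. Other processing lowered the count to 211 with normexp, 130 with no background correction and 163 with loess after normexp, and windows of 250 kb gave 218 calls. Chromosome 15 had a larger called share of windows than chromosomes 13 and 14 in 17 of 17 alternatives. Without the new sorting array its lead was slight, at 25.24% against 25.16% on chromosome 13.

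**Figure D4:**
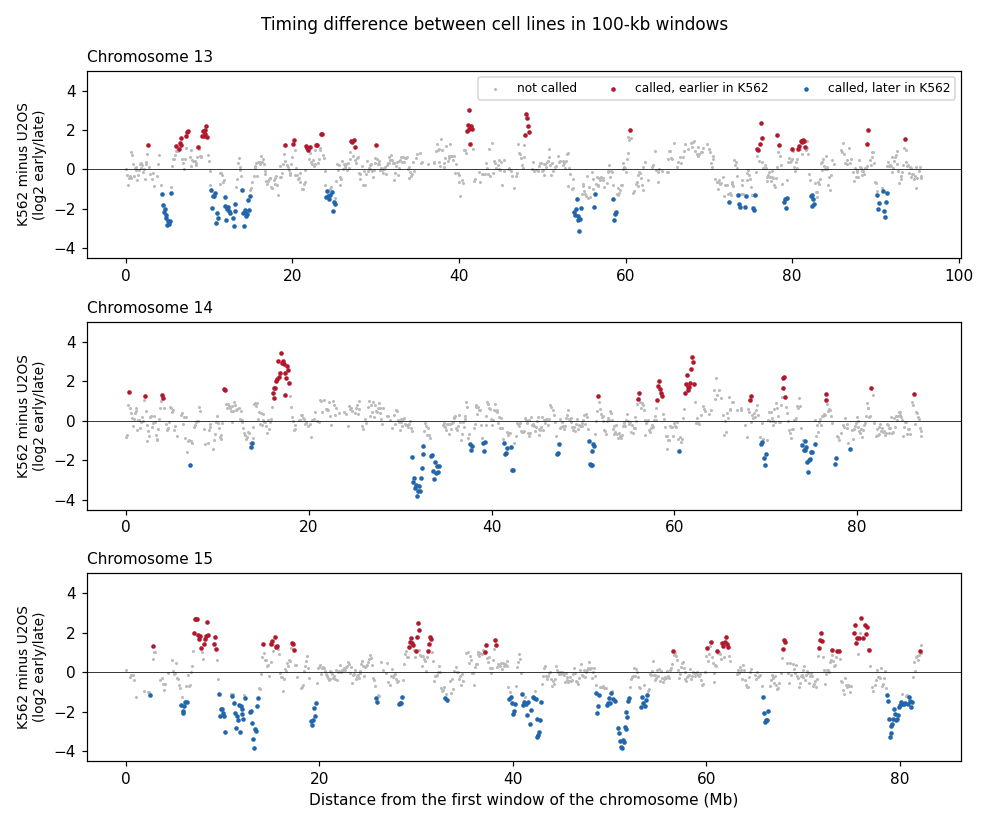
Difference in log2(early/late) between K562 (mean of 2 arrays) and U2OS (mean of 4 arrays) in each 100-kb window, against distance in Mb from the first window. Coloured points are the called windows, 154 on chromosome 13, 124 on chromosome 14 and 208 on chromosome 15, and they form runs of neighbouring windows of the same direction.

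Regions earlier in K562 lay at DIAPH3 and PCDH9 on chromosome 13, PAX9 on chromosome 14 and GABRG3 on chromosome 15. A window of DIAPH3, a formin gene that acts on actin filaments, read 1.54 and 1.49 on the K562 arrays and -1.80, -1.24, -1.68 and -1.34 on the U2OS arrays at chr13:60600001-60700000. The difference was 3.03 ± 0.28 SE (limma adjusted p = 7.76e-04). In PCDH9, a protocadherin gene for cell adhesion, the window at chr13:67500001-67600000 read 1.01 and 0.79 in K562 and -2.05, -1.74, -1.85 and -1.93 in U2OS. The region at chr14:37100001-37200000 holds PAX9, a developmental transcription factor gene, and SLC25A21, a mitochondrial carrier gene. It read 1.82 and 1.74 in K562 and -1.34, -1.30, -2.17 and -1.74 in U2OS. The difference was 3.42 ± 0.32 SE (limma adjusted p = 7.76e-04). A window of GABRG3, a GABA receptor subunit gene, read 0.94 and 0.10 in K562 and -1.82, -2.18, -2.47 and -2.29 in U2OS at chr15:27400001-27500000, in a region of 3 windows.

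Regions later in K562 lay at FRMD6 and GNG2 on chromosome 14 and at LRRC49 and FMN1 on chromosome 15, where the 4 U2OS arrays were above 0, and at windows of chromosome 13 where they were not all so. At chr14:52000001-52100000 in FRMD6, a gene of the Hippo pathway, the K562 arrays read -2.91 and -1.96 and the U2OS arrays 1.75, 1.52, 1.04 and 1.26 (difference -3.82 ± 0.35 SE, limma adjusted p = 7.76e-04). Nearby at chr14:52300001-52400000, GNG2, a G protein gamma subunit gene, read -2.83 and -1.76 in K562 and 1.17 to 1.47 in U2OS. LRRC49 at chr15:71300001-71400000 read -2.80 and -1.76 in K562 and 1.83, 1.80, 1.39 and 1.33 in U2OS, a difference of -3.87 ± 0.36 SE with the same adjusted p. FMN1, another formin gene, read -3.40 and -2.28 in K562 and 1.33, 1.75, 0.55 and 0.31 in U2OS at chr15:33300001-33400000. On chromosome 13 the window at chr13:73900001-74000000 read -3.55 and -2.13 in K562 and 0.77, 0.10, -0.01 and 0.35 in U2OS (difference -3.14 ± 0.43 SE, limma adjusted p = 0.00202). The window of EEF1DP3, a pseudogene, read -3.12 and -2.30 in K562 and -0.29, 1.06, 0.02 and -0.26 in U2OS, so U2OS lay near 0 there (difference -2.85). The 12 regions named by this rule kept the direction under each alternative that gave a value, and all but the window at LOC145820 on chromosome 15 kept the call in each. That window, at chr15:96000001-96100000, had an adjusted p of 0.0738 with normexp and 0.0644 with no background correction.

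Genes were read as the mean of probes named for them, with at least 3 probes, and of 11307 such genes 1034 lay on the 3 chromosomes. Over all genes 21.1% were called between the lines, 9.41% earlier and 11.7% later in K562, and of the 1034 genes here 92 were earlier and 122 later (20.7%). Chromosome 13 had 78 called of 284 genes (27.5%), chromosome 14 had 53 of 355 (14.9%) and chromosome 15 had 83 of 395 (21.0%). By genes the largest share was thus on chromosome 13, unlike by windows, where it was on chromosome 15. Gene lists were chosen by function, with earlier results of these data known, so their counts are descriptions.

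Genes of neuronal adhesion and signalling were mostly late in both lines. Of 25 measured of 30 listed, 21 were below 0 on 6 of 6 arrays (20 with arrays centred on the mean), with a median of -1.73 in K562 and -1.71 in U2OS. Of all 11307 genes 2315 were below 0 on 6 of 6 arrays, and of the 1034 on these chromosomes 163 were. 4 were called earlier in K562 and 2 later, with a median difference of 0.06 beside -0.08 over all genes. The 4 include DIAPH3, the formin gene described above as acting on actin filaments, so the list is wider than its name. GABRG3 read 0.43 and -0.12 in K562 and -1.62, -1.97, -2.41 and -2.39 in U2OS, or 2.25 ± 0.32 SE apart (limma adjusted p = 9.65e-04). Its neighbour GABRA5, another GABA receptor subunit gene, read 0.58 and -0.49 in K562 and -2.19 to -1.44 in U2OS. DIAPH3 as a whole differed by 1.88 and PCDH9 by 1.24. NALCN, a sodium leak channel gene, read -2.87 and -1.54 in K562 and -0.89 to -0.38 in U2OS, a difference of -1.49 (adjusted p = 0.0179). CHRNA7, a nicotinic receptor subunit gene, was also later in K562 (difference -1.31), with -2.85 and -1.79 against -1.34 to -0.68.

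The 3 largest gaps between the sorting arrays among the listed genes lay in this list. MDGA2, a neuronal adhesion gene in the low-agreement bin of chromosome 14, read -3.06 on the new and -0.42 on the old sorting array, with -2.52 to -2.08 in U2OS. FLRT2 read -2.84 and -0.18, with -1.82 to -1.21 in U2OS. SLITRK6 on chromosome 13 read -2.62 and 0.07, with -2.46 to -1.05. Over the list the median gene was -2.35 on the new and -1.19 on the old array.

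Genes of cell cycle, replication and repair were mostly early in both lines. Of 24 measured of 27 listed, 17 were above 0 on 6 of 6 arrays (18 with arrays centred on the mean), with a median of 1.04 in K562 and 1.35 in U2OS. Among genes at large 5593 of all 11307, and 567 of the 1034 on these chromosomes, were above 0 on 6 of 6 arrays, and the medians of all genes were 0.75 in K562 and 0.76 in U2OS. BLM, a DNA helicase gene, read 1.32 and 0.69 in K562 and 1.35 to 2.01 in U2OS. 1 gene was called earlier in K562 and 1 later. CENPJ, a centriole gene, read 0.65 and 1.31 in K562 and -0.28 to 0.05 in U2OS, or 1.07 ± 0.29 SE apart (limma adjusted p = 0.0230). RFC3, a subunit of the clamp loader at the replication fork, read -2.49 and -1.78 in K562 and -1.11 to -0.65 in U2OS, a difference of -1.30 ± 0.30 SE (adjusted p = 0.0111). LIG4, a DNA ligase gene of end joining, was late on all 6 arrays, from -2.35 to -0.95.

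Of the blood and immune list 12 of 21 genes were measured, 2 were called earlier in K562 and 1 later. FLT1, a VEGF receptor gene, read 1.14 and 0.82 in K562 and -0.16, -0.83, -1.25 and -1.23 in U2OS (difference 1.85 ± 0.35 SE, limma adjusted p = 0.00421). The adjacent FLT3, a receptor kinase gene of blood progenitors, read 1.09 and 0.23 in K562 and -1.24 to -0.24 in U2OS (difference 1.51). ALOX5AP, a leukotriene synthesis gene, was early on all 6 arrays and later in K562, with 0.52 and 0.004 against 1.15 to 1.45. B2M, the light chain of class I antigens, was early on all 6 arrays, from 1.46 to 2.27.

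Of the skeletal and mesenchymal list 16 of 20 genes were measured, 3 were called earlier in K562 and 3 later. IGF1R, the receptor of insulin-like growth factor 1, read -1.71 and -1.67 in K562 and 0.88, 0.74, 1.19 and 1.02 in U2OS. The difference was -2.65 ± 0.26 SE (limma adjusted p = 1.95e-04), and the K562 mean was -1.69 ± 0.03 (SD, n = 2). TNFRSF19, a TNF receptor family gene, read -1.84 and -1.88 in K562 and 0.34 to 0.62 in U2OS (difference -2.36 ± 0.25 SE, adjusted p = 2.52e-04). KLF5, a transcription factor gene, was also later in K562 (difference -1.07). Earlier in K562 were ALDH1A2, which makes retinoic acid, at a mean of 1.52 ± 0.03 (SD, n = 2) against -0.66 to 0.20, MEIS2, a homeobox gene, at -0.58 and -0.93 against -2.57 to -1.62, and FBLN5, an elastic fibre gene, at 1.69 and 1.03 against -0.20 to 0.92.

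Of 10 listed imprinted genes 5 were measured. ATP10A, a lipid flippase gene beside the imprinted cluster of chromosome 15, read -2.81 and -1.75 in K562 and -0.14, -0.91, 0.18 and 0.19 in U2OS, or -2.11 ± 0.41 SE apart (limma adjusted p = 0.00451). Its neighbours SNRPN and UBE3A were late on all 6 arrays and were not called. MEG3, a maternally expressed non-coding RNA gene of chromosome 14, read 1.19 and 1.09 in K562 and -0.16 to 0.60 in U2OS and was not called (difference 0.83, adjusted p = 0.0792). SERPINA12, the 1 gene measured in the alpha-1 serpin cluster, read -2.14 and -1.95 in K562 and a mean of 0.68 ± 0.45 (SD, n = 4) in U2OS. The lines differed by -2.73 ± 0.33 SE (limma adjusted p = 4.21e-04). No olfactory receptor gene of these chromosomes had enough probes.

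Of the 19 listed genes called between the lines, GABRG3, IGF1R and SERPINA12 kept the call in each of 13 alternatives, and 16 lost it in at least 1. Without the new sorting array the calls of CHRNA7, NALCN, RFC3, FLT3, FBLN5, KLF5 and MEIS2 were lost, and without the old array those of PCDH9, CENPJ and ALOX5AP. Leaving out a U2OS array ended the call of CENPJ, ALOX5AP, FBLN5, KLF5, PCDH9 or CHRNA7, depending on the array. Normexp or no background correction ended 13 and 16 of the 19 calls, and loess after normexp 10. Between automated and manual arrays 3.13% of all genes and 22 of the 1034 genes were called. Among the lists these were PCDH17 and FANCM (-1.11), later on the automated arrays, and BCL11B (1.09) and EPB42 (1.11), earlier on them. Their limma adjusted p ran from 0.0468 to 0.0484, and the 4 calls were lost with arrays centred on the mean, scaled to the same spread, or without either automated array.

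**Figure D5:**
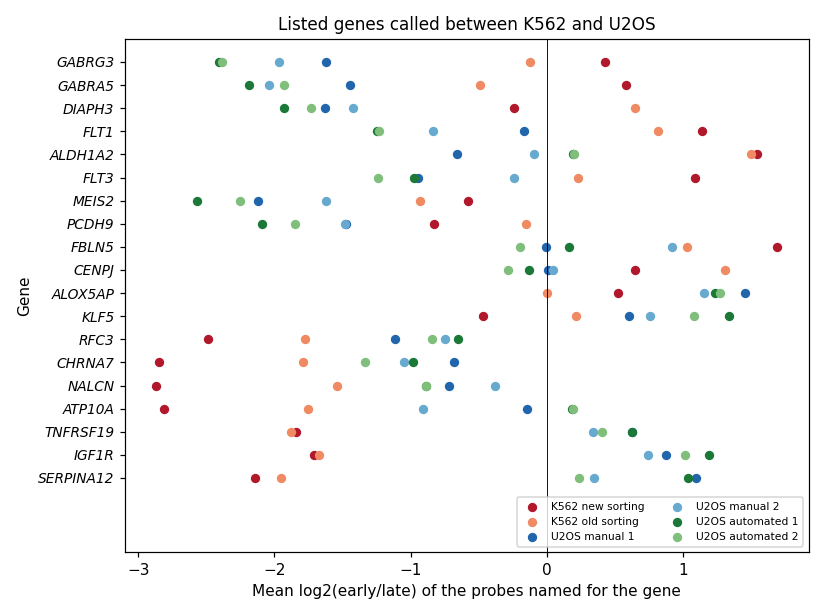
Mean log2(early/late) of the 19 listed genes called between K562 and U2OS, with 1 point per array and genes in the order of their difference. The 2 K562 points of IGF1R and TNFRSF19 nearly coincide and lie far below the U2OS points, while those of CHRNA7, NALCN and ATP10A lie over 1 apart.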

How the data were processed

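Early and late nascent DNA were co-hybridised on Agilent arrays of 180880 features; the array labelled 44k has another design and was not used here. Per the file headers, the deposited log10 ratio is red over green from background-subtracted, dye-normalized signals of Feature Extraction 11.5.1.1, and the spot intensity columns are raw; the submitters' processing notes name Agilent Feature Extraction 9.1. Positions and gene names are those of the deposited tables, on hg19.

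The ratio was turned to log2(early/late), outlier spots were dropped, repeated probes averaged, each array centred on its median probe, and windows of 100 kb with at least 3 probes on each array formed. Background-subtracted ratios were preferred to an offset of 50, which pulls dim arrays toward 0. Where a channel is dim the software's surrogate replaces it, and every ratio of exactly 0 held a surrogate. Precision is limited by the number of arrays. Groups came from titles. limma 3.58.1 in R 4.3.3 (lmFit, eBayes, Benjamini-Hochberg) was fitted over all 24161 windows or 11307 genes and was tested on simulated shifts. Of 200 windows shifted by 1, it called 38% between automated and manual arrays, with 7 false calls, so many such differences would be missed there. Between the lines 69% passed the adjusted p and 50% were called, with 1 false call. A call there also needs a difference of at least 1, the size of the shift, which by itself lowers that share. The simulated spread was that within the U2OS methods. The wider spread between the K562 arrays did not enter it, so error rates of the real comparison of lines are not known. Alternatives were other background corrections, loess after normexp, dim and surrogate probes left out, windows of 250 and 50 kb, at least 5 probes, scaling, mean centring, a replicate block, and each array left out. Without surrogate probes and with arrays of a slide averaged were chosen after seeing the data.

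Named regions were, per chromosome and direction, the 2 largest called differences between lines whose arrays did not overlap, the 1 largest between methods, and the 2 largest between sorting arrays; listed genes needed at least 3 probes. Members and lists were chosen with earlier results of these data known. Same-numbered manual and automated arrays had deviations correlated at -0.01, so no shared deviation was seen. With 2 arrays per method this cannot decide whether the numbers pair them.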

Additional observations from a re-analysis of the deposited data

How the results depend on the processing

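No difference of a named region or gene, and no gap between chromosomes 15 and 13, reversed under the alternatives run. Some other orders did: without dim probes the median of chromosome 13 was above 0 on 4 of 6 arrays, chromosomes 13 and 14 changed places in r without dim or surrogate probes, and without the new sorting array 53.2% of calls between the lines were earlier in K562, against 39.9%. Agreement of the new and old sorting arrays on chromosomes 13, 14 and 15, as r, was 0.677, 0.744 and 0.869 with normexp (offset 50), 0.600, 0.667 and 0.817 with no background correction, and 0.846, 0.859 and 0.905 with loess after normexp (2 choices changed at once). It was 0.920, 0.897 and 0.929 without dim probes, 0.740, 0.857 and 0.929 in 250-kb windows, 0.863, 0.879 and 0.930 with at least 5 probes, and on chromosomes 13 and 14 it was 0.832 and 0.852 in 50-kb windows and 0.874 and 0.871 without surrogate probes. Chromosome 15 had the highest r of the 3 in 8 of 8 alternatives, and chromosome 13 the lowest in 6. Windows called between automated and manual arrays, 238 in all, numbered 1357 with normexp, 1222 with no background correction, 1383 with loess after normexp, 76 without dim probes, 113 in 50-kb windows, 106 with arrays scaled to the same spread and 125 without surrogate probes. They ran from 1 to 616 with an array left out, and the lone array of a method was then assumed to vary like the others. With the replicate block 238 windows were called, of which 213 were among the 238 called without it, and the block ended the call of no named region or gene. Same-numbered arrays did not deviate together, but whether the numbers pair them is not stated. Windows called between K562 and U2OS, 486 in all, numbered 211 with normexp, 130 with no background correction, 163 with loess after normexp and 218 in 250-kb windows, and 343 to 729 with an array left out. The cause of these changes was not tested, except that windows of 250 kb are fewer (1052). Over probes well above background, log2 brightness relative to all probes was -0.28 in green and -0.14 in red for chromosome 13, and 0.18 and -0.21 for chromosome 15. The timing gap between chromosomes 15 and 13 was 1.40 to 1.67 with an array left out, where 5 arrays allow no exact p below 0.0625. A random block for slide could not be fitted (0 of 2000 windows gave a correlation), so arrays of the same slide were averaged instead, which gave 455 calls between the lines. Dim signal limited the old sorting array in green, with 44.8% of spots well above background against 86.9% on the new array, and the second manual array in red, with 40.3%.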
